A study of Mus musculus with 36 samples.

Results

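The genes described here encode the enzyme families that modify drugs, carcinogens, bile acids, steroids and other small lipophilic molecules in the mouse. They were taken by symbol: cytochromes P450 of families 1 to 4, UDP-glucuronosyltransferases of families 1 and 2, cytosolic and kappa-class glutathione transferases, and sulfotransferases. Of 17097 genes measured in colon, 89 carried such a symbol, and the 45 of them with a mean intensity of 16 or more over all 36 arrays are the enzyme genes described below. They comprised 19 of 51 cytochromes P450, 4 of 9 UDP-glucuronosyltransferases, 16 of 16 glutathione transferases and 6 of 13 sulfotransferases. The level over all arrays chose them, without a test between groups. A gene high in some groups only could still pass, as Cyp2a5, Cyp2e1, Cyp4f18 and Cyp4f39 did. The enzyme genes just above the limit were Cyp4f39, Cyp2j9 and Cyp2a5, with means of 18.6, 19.5 and 20.2, and those just below it were Cyp4b1, Cyp2b10 and Sult1c1, with means of 15.1, 14.7 and 14.1.

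The arrays came from whole colon, minced and homogenized, of wild-type mice (WT) and of IL-17RC KO mice (KO), in which a subunit of the receptor that binds IL-17A and IL-17F, both inflammatory cytokines, is knocked out. Mice were 6 to 8 weeks old, and the labels give no strain or sex. Untreated WT and untreated KO mice (day 0, 4 arrays each) were compared with mice given AOM (azoxymethane, a colon carcinogen) and cycles of 3% DSS (dextran sulfate sodium, which injures the colon lining) in the drinking water, with 3 cycles of 5 days of DSS and 14 days of plain water in the full protocol. Treated arrays were labelled day 7 (4 WT, 4 KO), day 15 (4 WT, 4 KO) and tumor at day 63 (6 WT, 6 KO). The untreated mice were not kept to day 63, so tumors differ from them in age as well as in treatment and tissue.

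In textbook terms, these enzymes work in sequence. Cytochromes P450 (phase I) add oxygen to a substrate, and transferases (phase II) then attach glucuronic acid, glutathione or sulfate, which makes the product water-soluble so that ATP-binding cassette transporters can export it. The colon is exposed to dietary and microbial compounds, and its absorptive epithelium is a site of this metabolism outside the liver. The genes are regulated by ligand-binding transcription factors such as the aryl hydrocarbon receptor, the pregnane X receptor (Nr1i2) and the stress sensor Nfe2l2.

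Il17rc, the deleted gene, checked the labels. Its intensity lay between 76 and 515 on the WT arrays and between 7 and 15 on the KO arrays other than day 7. Of the arrays labelled KO day 7, replicate 1 had 331 and replicate 2 had 44, against 12 and 10 on the others, so this group is called the arrays labelled KO day 7 throughout. Krt5, a keratin of stratified squamous epithelium that colon epithelium lacks, was above 100 on 7 arrays and at most 96 on the rest. These were replicates 1 and 4 of untreated WT, replicates 1 and 4 of WT at day 7, replicates 1 and 2 labelled KO day 7, and KO tumor replicate 2. Colon epithelium markers were above 16 on some array of every group for 10 of 10 genes, and of 10 liver markers 4 to 8 lay below 16 on every array of a group. In this bulk tissue, fewer cells of a type and less RNA per cell cannot be told apart.

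Enzyme genes were called most often in tumors, and so were genes of the whole array. With a limma model over all 36 arrays and an adjusted p under 0.05, 26 of 45 were called in WT tumors against untreated WT colon (2 higher and 24 lower) and 28 of 45 in KO tumors against untreated KO colon (3 higher and 25 lower). Over all 17097 genes, 22.8% were called in WT tumors (12.6% higher and 10.2% lower) and 20.8% in KO tumors (10.8% higher and 9.92% lower). Among the 10937 genes with the same mean of 16 or more, 14.5% were lower in WT tumors and 14.8% in KO tumors. The median log2 difference of the 45 enzyme genes was -1.01 in WT and -1.02 in KO tumors, beside 0.02 and 0.01 over all genes. At day 7 and day 15 at most 3 enzyme genes were called in any comparison, and over all genes 1.66% at day 7 and 3.38% at day 15 in WT, 12.2% on the arrays labelled KO day 7 and 0.813% at day 15 in KO.

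**Figure D1:**
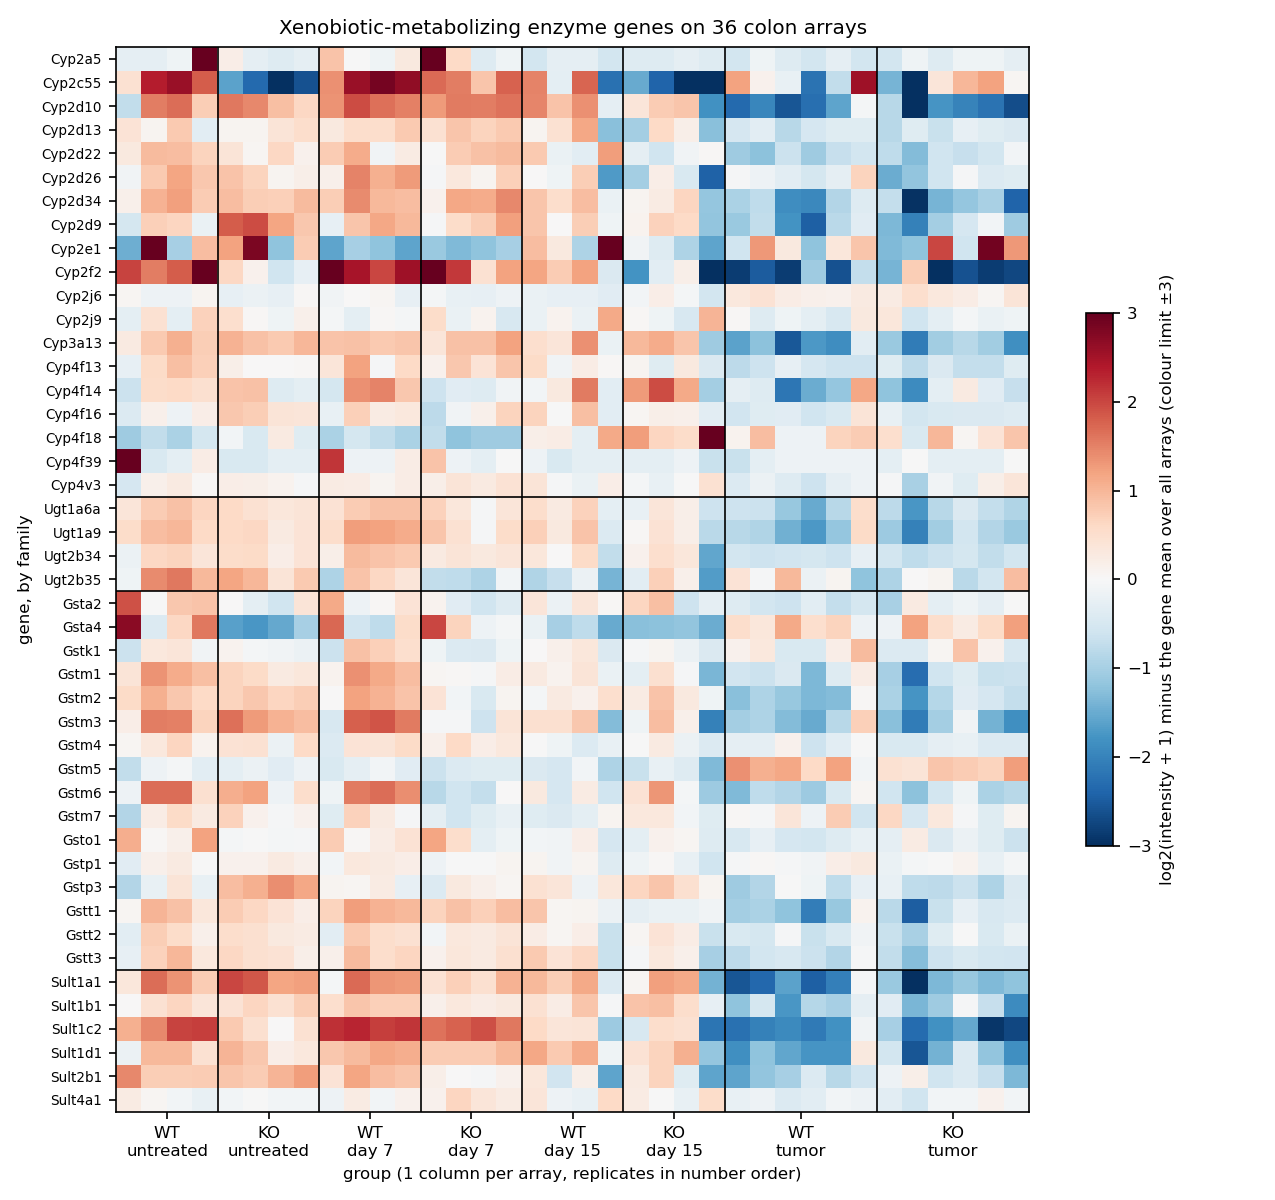
Each row is 1 of the 45 enzyme genes, grouped by family, and each column 1 of the 36 arrays, grouped by genotype and stage. Colour gives log2(deposited intensity + 1) minus the gene's mean over all arrays, and most rows are blue on the tumor arrays, with Gstm5 as a red exception.

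Sulfotransferases, which attach sulfate to phenols, steroids and catecholamines, fell in tumors of both genotypes for 5 of 6 genes. Sult1a1, the phenol sulfotransferase, had intensities of 1307, 3289, 2634 and 1756 in untreated WT colon and a lowest, median and highest of 174, 225.5 and 1000 in WT tumors. In KO mice the untreated arrays had 4141, 3798, 2371 and 2450, and the tumors 89, 431.5 and 480. The tumor arrays lay below the untreated arrays without overlap in both genotypes. The fall was 7.34-fold in WT (log2 difference -2.88 ± 0.49, standard error, adjusted p = 7.1e-05) and 8.92-fold in KO (-3.16 ± 0.49, adjusted p = 2.3e-05). Folds and log2 differences are of normalized intensity + 1.

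Sult1c2, a sulfotransferase of the gut, had 237, 307, 462 and 474 in untreated WT and 23, 28 and 105 (lowest, median, highest) in WT tumors. Untreated KO arrays read 195, 158, 113 and 154, and KO tumors 14, 26.5 and 56. Again no tumor array reached an untreated one, and Sult1c2 fell 10.1-fold in WT (-3.34 ± 0.44, adjusted p = 1.9e-06) and 5.63-fold in KO (-2.49 ± 0.44, adjusted p = 0.00011). Sult1d1, which acts on catecholamines, had untreated ranges of 471 to 1047 in WT and 612 to 1071 in KO, and tumor ranges of 148 to 646 and 88 to 397. Its log2 differences were -1.88 ± 0.40 in WT and -1.90 ± 0.40 in KO, both called lower. Its neighbour on chromosome 5, Sult1b1, the thyroid hormone sulfotransferase, went from 815 to 1265 in untreated WT to 240 to 669 in tumors, and from 1088 to 1347 to 215 to 783 in KO, falls of 1.30 ± 0.27 and 1.44 ± 0.27. Sult2b1, the cholesterol sulfotransferase, had tumor values of 33, 53 and 76 in WT and 39, 71 and 114 in KO, below every untreated array (170 to 276 in WT, 173 to 243 in KO). The exception was Sult4a1, a brain-type sulfotransferase, with log2 differences of -0.20 ± 0.13 and -0.12 ± 0.13 that did not pass the test.

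Of the UDP-glucuronosyltransferases, which conjugate bilirubin, bile acids, steroids and phenols, 3 of 4 fell in both genotypes. Ugt1a6a, the phenol-conjugating member, had 2136, 2831, 3069 and 2590 in untreated WT colon and 583, 999.5 and 2388 in WT tumors. In untreated KO colon it had 2519, 2286, 2107 and 2185, and in KO tumors 497, 944 and 1236. KO tumors did not overlap with untreated colon, whereas 1 WT tumor array (replicate 6, 2388) lay inside the untreated range. The falls were 2.56-fold in WT (-1.35 ± 0.26, adjusted p = 0.00026) and 2.52-fold in KO (-1.33 ± 0.26, adjusted p = 0.00033). Ugt1a9, with medians from 1254 to 360.5 in WT and from 1049.5 to 350 in KO, fell by 1.68 ± 0.31 and 1.58 ± 0.31, but both genes are transcribed from 1 locus on chromosome 1 into shared last exons, and their probe sets may not separate them. Ugt2b34 had 1425, 2264 and 2552 (lowest, median, highest) in untreated WT and 1040, 1086.5 and 1354 in WT tumors, and fell by 0.88 ± 0.25 in WT and 1.04 ± 0.25 in KO. Ugt2b35 had values of 75, 222, 248 and 164 in untreated WT and 35, 84.5 and 162 in WT tumors, and differed by -0.95 ± 0.44 and -1.08 ± 0.44, neither past the threshold.

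Of the 19 cytochromes P450, 7 fell and 1 rose in WT tumors, and 8 fell and 1 rose in KO tumors. The Cyp2d cluster on chromosome 15, homologous to the human debrisoquine hydroxylase CYP2D6, supplied 4 of the falls in each genotype. Cyp2d10 had 101, 494, 544 and 287 in untreated WT colon and 28, 39 and 163 in WT tumors, with 510, 463, 317 and 264 in untreated KO colon and 14, 39 and 95 in KO tumors. The KO groups were apart, and in WT the untreated replicate 1 (101) lay below tumor replicate 6 (163). Cyp2d10 fell 6.04-fold in WT (-2.59 ± 0.51, adjusted p = 0.00038) and 9.81-fold in KO (-3.29 ± 0.51, adjusted p = 2.3e-05). Cyp2d34 fell by 1.93 ± 0.37 and 2.41 ± 0.37, Cyp2d9 by 1.35 ± 0.41 and 2.45 ± 0.41, and Cyp2d22 by 1.56 ± 0.24 and 0.97 ± 0.24 on the log2 scale. The WT call for Cyp2d9 was lost without untreated replicate 2 or 3 (log2 difference between -1.18 and -1.17, adjusted p of up to 0.067). Cyp2d13 and Cyp2d26, of the same cluster, had log2 differences between -1.11 and -0.70 that did not pass. These genes are related in sequence, so a probe set of 1 may bind RNA of another, and their sequences were not compared.

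Cyp3a13, the P450 of the drug-oxidizing 3A subfamily that is typical of mouse intestine, had 384, 554, 670 and 532 in untreated WT colon and 54, 100 and 257 in WT tumors. Untreated KO colon had 662, 590, 554 and 637, and KO tumors 74, 151 and 180. Tumors and untreated colon were apart in both genotypes, and the falls of 4.86-fold (-2.28 ± 0.36, adjusted p = 2.2e-05) and 4.76-fold (-2.25 ± 0.36, adjusted p = 2.8e-05) both passed the test. Cyp2f2, best known as the naphthalene-oxidizing enzyme of lung club cells, had 324, 229, 280 and 1312 in untreated WT colon, and 10, 12.5 and 47 in WT tumors. This fall of 21.8-fold (-4.45 ± 0.69, adjusted p = 1.9e-05) was the largest among the enzyme genes. It was -3.75 ± 0.68 (adjusted p = 0.00036) without the arrays with high Krt5, which include the one with 1312. In KO mice Cyp2f2 had 121, 85, 51 and 66 untreated and 7, 11.5 and 130 in tumors, a fall of 4.12-fold (-2.04 ± 0.69, adjusted p = 0.032) with overlapping arrays. The KO tumor array with 130 also had high Krt5. The KO call was lost with a pseudocount of 16 (-1.33, adjusted p = 0.080) and without KO untreated replicate 1, 2 or 4 or KO tumor replicate 3, 4, 5 or 6, with adjusted p of up to 0.105. The difference between the WT and KO falls of Cyp2f2 was 2.41 ± 0.98 and did not pass (adjusted p = 0.46).

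Cyp4f13, of the fatty acid omega-hydroxylase family, fell in tumors of both genotypes (-0.999 ± 0.202 in WT and -0.64 ± 0.20 in KO), the KO call being lost without KO untreated replicate 1 (-0.60, adjusted p = 0.064). Its relative Cyp4f16 fell in KO tumors by 1.02 ± 0.24, with -0.28 ± 0.24 in WT. Cyp4f18, a leukotriene B4 hydroxylase of neutrophils and other leukocytes, went the other way. It had 10, 13, 11 and 15 in untreated WT colon and 20, 30 and 43 in WT tumors, and rose 2.30-fold (1.20 ± 0.32, adjusted p = 0.0063), or by 0.69 on the log2 scale with a pseudocount of 16. Its untreated WT mean of 12.25 lay below the limit, which Cyp4f18 passed through other groups, WT tumors among them. Untreated KO colon had 21, 16, 27 and 17 and KO tumors 16, 31 and 45, an overlapping difference of 0.51 ± 0.32 that did not pass. Neutrophil markers moved in the same direction, with 3 of 6 higher in WT tumors and 4 of 6 in KO tumors and none lower, and their part in the Cyp4f18 values was not tested. Cyp2j6, an arachidonic acid epoxygenase, rose by 0.43 ± 0.12 in KO tumors, but a mean over its probe sets gave 0.21 (adjusted p = 0.12).

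**Figure D2:**
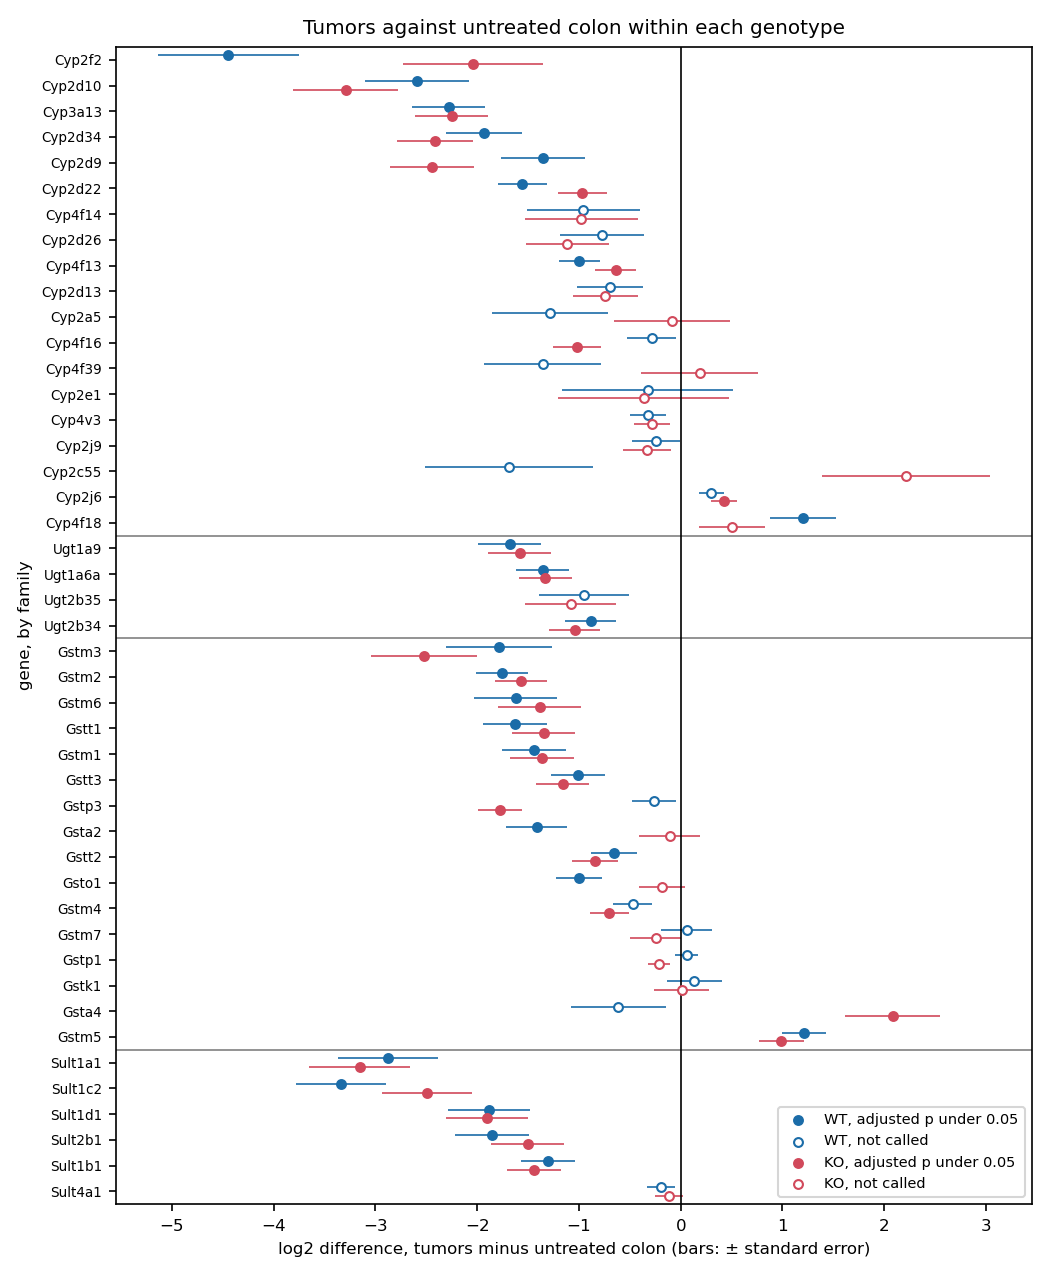
Points give the log2 difference between tumors and untreated colon for each of the 45 enzyme genes, in WT (blue, 6 tumor and 4 untreated arrays) and KO (red, 6 and 4), with bars of ± 1 standard error. Filled points had an adjusted p under 0.05; most filled points lie left of 0, and Cyp2c55 and Gsta4 are the genes whose WT and KO points lie on opposite sides of 0 by the widest margins.

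Glutathione transferases, which join glutathione to electrophiles, fell for 9 of 16 genes in each genotype. In the theta class on chromosome 10, Gstt1 fell by 1.63 ± 0.31 in WT and 1.35 ± 0.31 in KO, Gstt3 by 1.01 ± 0.26 and 1.16 ± 0.26, and Gstt2 by 0.65 ± 0.23 and 0.84 ± 0.23. For Gstt2 the WT call was lost without WT untreated replicate 2, 3 or 4 or WT tumor replicate 1, 2, 4 or 5, and with arrays centred on their medians. The pi-class gene Gstp1 had 2836, 3991, 4344 and 3558 in untreated WT colon and 3328, 3617.5 and 4402 in WT tumors, which overlapped, and 3941, 3919, 4340 and 4012 in untreated KO colon and 3102, 3455 and 3856 in KO tumors, which lay just below. Its log2 differences were 0.06 ± 0.11 in WT and -0.21 ± 0.11 in KO, and neither passed. Gstk1, the mitochondrial and peroxisomal kappa enzyme, had 0.13 ± 0.27 and 0.01 ± 0.27.

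The mu class showed opposite directions among neighbours. Along chromosome 3 (GRCm38.p6) the genes lie in the order Gstm5 (107895854 to 107898685), Gstm7, Gstm6, Gstm3, Gstm2 (107981702 to 107986420), Gstm1 and Gstm4. Gstm5, a member known from testis and brain, had 572, 863, 914 and 776 in untreated WT colon and 901, 2079.5 and 2495 in WT tumors. In untreated KO colon it had 788, 847, 752 and 864, and in KO tumors 1264, 1577.5 and 2306. KO tumors lay above all untreated KO arrays, and 5 of 6 WT tumors above all untreated WT arrays, with replicate 6 (901) just inside. Gstm5 rose 2.32-fold in WT (1.21 ± 0.22, adjusted p = 0.00012) and 1.99-fold in KO (0.99 ± 0.22, adjusted p = 0.0012). It was the only enzyme gene with a mean of 16 or more called higher in tumors of both genotypes.

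Gstm2, a muscle-type mu transferase, fell instead, from 375, 529, 442 and 386 to 98, 110 and 260 in WT, and from 404, 441, 397 and 424 to 74, 147 and 199 in KO. Neither genotype's tumors overlapped with untreated colon, and the falls were 3.39-fold (-1.76 ± 0.26, adjusted p = 7.9e-06) and 2.97-fold (-1.57 ± 0.26, adjusted p = 4e-05). Gstm1, the main detoxifying mu enzyme of mouse liver, fell by 1.44 ± 0.31 and 1.37 ± 0.31, with medians from 1313.5 to 464 and from 902.5 to 415. Gstm3 fell by 1.79 ± 0.52 and 2.52 ± 0.52, and Gstm6 by 1.62 ± 0.41 and 1.39 ± 0.41, with the KO call for Gstm6 lost without KO untreated replicate 1 or 2 (-1.25 to -1.20). Gstm4 fell in KO (-0.70 ± 0.19) with -0.47 ± 0.19 in WT, and Gstm7, between Gstm5 and Gstm6, had 0.06 ± 0.25 and -0.25 ± 0.25. Mu-class genes are similar in sequence, and a probe set of 1 may bind RNA of another.

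**Figure D3:**
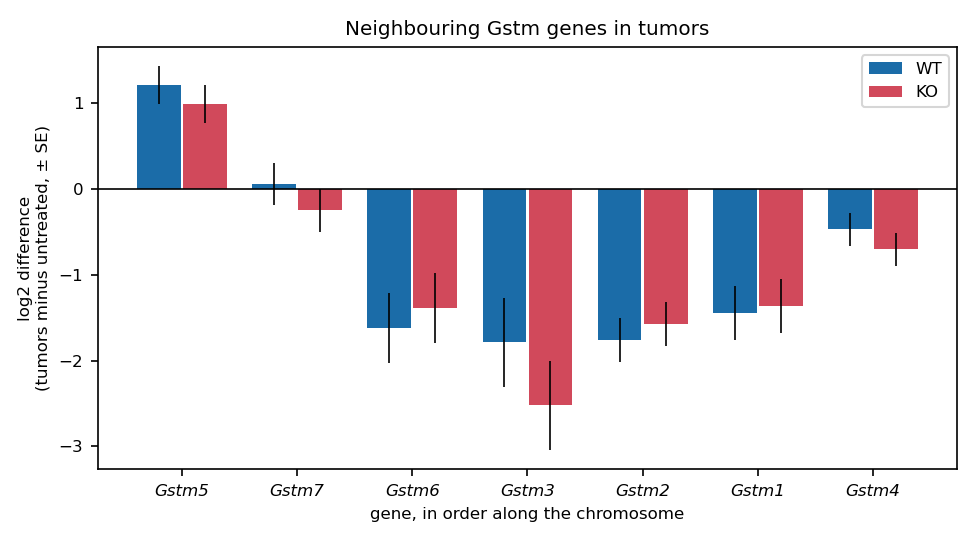
Bars give the log2 difference between tumors and untreated colon in WT (blue) and KO (red), with ± 1 standard error, for the 7 Gstm genes in chromosomal order. Gstm5 at 1 end stands above 0 in both genotypes, and Gstm6, Gstm3, Gstm2, Gstm1 and Gstm4 stand below it.

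Since Gstm5 and Gstm2 moved oppositely, the 250 bases before their RefSeq transcription starts (GRCm38.p6) are shown 5′ to 3′ on the gene's strand. Capitals mark letters that match the aryl hydrocarbon receptor core GCGTG or the antioxidant response element core TGACNNNGC on either strand, and the 2 matches near the end of the Gstm5 stretch overlap.
Gstm5 (plus strand, chr3:107895604-107895853): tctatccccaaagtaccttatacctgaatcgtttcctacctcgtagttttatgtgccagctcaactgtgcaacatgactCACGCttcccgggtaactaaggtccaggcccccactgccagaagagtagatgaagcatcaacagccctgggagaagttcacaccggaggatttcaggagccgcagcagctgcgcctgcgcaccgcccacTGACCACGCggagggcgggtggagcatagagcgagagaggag
Gstm2 (minus strand, chr3:107986421-107986670): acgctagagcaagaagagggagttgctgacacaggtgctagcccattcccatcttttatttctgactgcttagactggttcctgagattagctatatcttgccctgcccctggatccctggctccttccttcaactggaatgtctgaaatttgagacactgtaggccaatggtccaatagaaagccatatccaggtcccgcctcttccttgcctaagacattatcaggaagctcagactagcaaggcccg
The stretch of Gstm5 held 3 matches and that of Gstm2 none, and GC made up 56.8% of the bases of the former and 49.6% of the latter. A promoter sequence was matched for 39 of the 45 enzyme genes. GCGTG was found in 28.2% of these (11 genes) and in 28.2% of all 27025 promoters of that length, and TGACNNNGC in 5.13% (Cyp4f18 and Gstm5) and in 10.2% of all. The nuclear receptor half-site AGGTCA was found in 12.8% (5 genes) and in 13.8% of all. Besides Gstm5, the 11 genes with GCGTG held Gstm1 and Sult1d1, lower in tumors of both genotypes. The rest were Gsta2, Gstp3 and Cyp4f16, lower in 1 genotype, and Cyp2j9, Cyp4f14, Cyp4f39, Cyp4v3 and Gstp1, called in neither. A match describes the letters only.

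Gsta2, of the alpha class that reduces lipid peroxides, fell in WT tumors (-1.42 ± 0.30), as did Gsto1 of the omega class (-0.996 ± 0.226), whereas their KO differences were -0.11 ± 0.30 and -0.19 ± 0.23. Without the 7 arrays with Krt5 above 100 the WT falls were 0.91 ± 0.31 (Gsta2) and 0.44 ± 0.15 (Gsto1). Gsto1 had 6851 and 7395 on the untreated WT arrays with high Krt5 and 3266 and 3560 on the others. The difference between the genotypes' tumor changes passed for neither Gsta2 (adjusted p = 0.22) nor Gsto1 (adjusted p = 0.43).

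Of the 24 enzyme genes lower in WT tumors and the 25 lower in KO tumors, 22 were shared, 91.7% of the former and 88.0% of the latter. Among all genes with a mean of 16 or more, 996 were lower in both genotypes, 62.8% of those lower in WT and 61.7% of those lower in KO, and the difference between these shares and those of the enzyme genes was not tested. No gene was called in opposite directions, and 14 were called in neither: Cyp2a5, Cyp2c55, Cyp2d13, Cyp2d26, Cyp2e1, Cyp2j9, Cyp4f14, Cyp4f39, Cyp4v3, Gstk1, Gstm7, Gstp1, Sult4a1 and Ugt2b35. For 13 genes in WT every tumor array lay below every untreated array, and for 26 in KO; over all genes with a mean of 16 or more this held for 8.93% and 13.6%. Between KO and WT tumors, limma called 0 of 45 enzyme genes, with 0 at an unadjusted p under 0.05, and 0.0526% of all genes. With the letter in the code of the array titles as a block, whose meaning the labels do not give, the calls of Gstm3, Gstm6, Gstt2, Gstt3 and Ugt2b34 in WT tumors and of Cyp2f2, Cyp4f13 and Gstm6 in KO tumors were lost. The log2 differences between the tumors of the genotypes lay between -0.54 and 0.42.

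Markers of cell types moved with the tumor changes. The summed intensity of 10 absorptive colonocyte markers had a median of 17813.5 (range 11348 to 20307) in untreated WT and 6452.5 (3343 to 14571) in WT tumors, and of 16269 (13277 to 18265) and 7225.5 (2602 to 11629) in KO. By single genes 6 of 10 were lower and 2 higher in WT tumors, and 5 lower and 2 higher in KO. Smooth muscle markers fell for 8 of 8 in WT and 7 of 8 in KO, with summed medians from 23940.5 to 6757.5 and from 18946 to 9130.5. Paneth cell markers rose for 3 of 3 in both genotypes (median log2 differences 6.08 and 5.27), macrophage markers for 7 of 8 in WT and 1 of 8 in KO, and of 2 markers of the distal colon region 2 fell in WT and 1 in KO (-1.56 and -1.13). General colon epithelium markers had median log2 differences of -0.12 and -0.23. WT tumor replicate 6, which held the highest WT tumor values of Sult1a1, Sult1c2, Cyp2d10, Cyp3a13, Ugt1a6a and Gstm2 and the lowest of Gstm5, also had the highest sums of colonocyte (14571) and smooth muscle (18285) markers among WT tumors. Its sums of colon epithelium, goblet, fibroblast, adipocyte, pancreas, small intestine, T cell and plasma cell markers were the highest there too. Those of Paneth cell (864), liver and squamous markers were the lowest. Markers of pancreas acinar cells summed to 11218 and 27660 on WT tumor replicates 2 and 6, to 7948 to 39127 on KO tumor replicates 3 to 6, and to at most 3133 on the other arrays, with 1 of 7 called higher in WT and 5 of 7 in KO tumors. The part of these markers in the enzyme changes was not tested.

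Untreated KO and WT colon differed in 3 enzyme genes, 2 lower and 1 higher in KO, where 2.28% of all genes were called (1.79% higher and 0.485% lower). Cyp2c55, a colon-rich P450 that oxidizes arachidonic acid, had 743, 2771, 3265 and 1897 in untreated WT and 177, 106, 36 and 88 in untreated KO. Every KO array was below every WT array, and Cyp2c55 was 21.0-fold lower in KO (-4.39 ± 0.91, adjusted p = 0.0033). The difference was -5.05 ± 1.05 without the arrays with high Krt5. On the arrays labelled KO day 7 it read 1753, 1579, 968 and 1832, all above untreated KO, a rise of 4.10 ± 0.91 on the log2 scale (adjusted p = 0.0024). That rise was 3.95 ± 1.15 without the 2 arrays with high Il17rc. At day 15 the KO arrays were again at 189, 102, 61 and 28, beside 1520, 442, 1814 and 114 in WT, a difference of -3.09 ± 0.91 that did not pass (adjusted p = 0.16). Tumors ranged widely, with 115, 528 and 3168 in WT and 46, 626.5 and 1257 in KO. The genotypes' changes from untreated to tumor differed by 3.90 ± 1.17, and from untreated to day 7 by 3.53 ± 1.28, and neither passed (adjusted p = 0.16 and 0.15).

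Gsta4, which conjugates the lipid peroxidation product 4-hydroxynonenal, had 3418, 394, 796 and 1569 in untreated WT and 167, 154, 178 and 260 in untreated KO. The groups did not overlap, and Gsta4 was 6.06-fold lower in KO (-2.60 ± 0.51, adjusted p = 0.0017). The highest WT values came from the arrays with high Krt5, and without those the difference was -1.56 ± 0.35 (adjusted p = 0.017). Against untreated KO it rose on the arrays labelled KO day 7 (between 468 and 2086, 2.13 ± 0.51, adjusted p = 0.0049) and in KO tumors (470, 761 and 1227, 2.08 ± 0.46, adjusted p = 0.0013). The day 7 rise was 1.40 ± 0.58 without the 2 arrays with high Il17rc (adjusted p = 0.14). These 2 are also the arrays labelled KO day 7 with high Krt5. Without the high-Krt5 arrays of all groups the day 7 rise was 1.40 ± 0.35 (adjusted p = 0.010) and the tumor rise 1.96 ± 0.27 (adjusted p = 1.9e-05). WT tumors had 466, 745.5 and 1145, inside the untreated WT range, with a difference of -0.61 ± 0.46.

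Gstp3, a pi-class relative next to Gstp1 on chromosome 19, ran opposite to Gsta4. It had 32, 51, 78 and 51 in untreated WT and 114, 126, 158 and 134 in untreated KO, without overlap, and was 2.63-fold higher in KO (1.40 ± 0.24, adjusted p = 0.00024). It fell on the arrays labelled KO day 7 (45, 74, 66 and 62, -1.02 ± 0.24, adjusted p = 0.0035) and in KO tumors (31, 36.5 and 51, -1.78 ± 0.22, adjusted p = 5.3e-07). WT arrays had 63, 62, 71 and 50 at day 7 and 28, 42.5 and 59 in tumors, both overlapping with untreated WT. Without the arrays with high Krt5 the untreated difference was 1.07 ± 0.28 (adjusted p = 0.053).

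The test of the genotypes' changes against each other called the same 2 genes at day 7 and in tumors, in 2.37% and 0.784% of all genes. The change of Gsta4 from untreated was higher in KO than in WT by 3.00 ± 0.72 at day 7 (adjusted p = 0.018) and by 2.70 ± 0.66 in tumors (adjusted p = 0.037). The change of Gstp3 was lower in KO by 1.47 ± 0.33 (-1.47, adjusted p = 0.011) and 1.51 ± 0.30 (-1.51, adjusted p = 0.0056). Without the arrays with high Krt5, Gsta4 was still called at day 7 (2.12 ± 0.54, adjusted p = 0.033) but not in tumors (1.53 ± 0.43, adjusted p = 0.15), and Gstp3 in neither (-1.23 ± 0.43 and -1.17 ± 0.34, adjusted p = 0.13 and 0.18). Without the 2 arrays with high Il17rc, also high in Krt5, the day 7 difference of Gsta4 was 2.27 ± 0.75 (adjusted p = 0.13). It was also lost without WT day 7 replicate 2 or 3, and that in tumors without any 1 of 13 arrays (WT untreated replicates 1 and 4, KO untreated 1, 2 and 3, WT tumor 1, 2, 4 and 6, KO tumor 2, 3, 5 and 6), at values between 2.15 and 2.72. All these comparisons share the untreated KO arrays. On these, 9 of 9 interferon-induced genes were called higher than in untreated WT, with a summed median of 17107.5 against 839, as were 4 of 6 T cell and 2 of 4 plasma cell markers. On the arrays labelled KO day 7, 9 of 9 interferon-induced, 8 of 8 macrophage, 4 of 6 T cell, 2 of 5 B cell and 3 of 4 plasma cell genes were lower than in untreated KO. In KO tumors 8 of 9 interferon-induced genes were lower than in untreated KO, and in WT tumors 7 of 9 were higher than in untreated WT. The part of these genes in the enzyme differences was not tested.

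**Figure D4:**
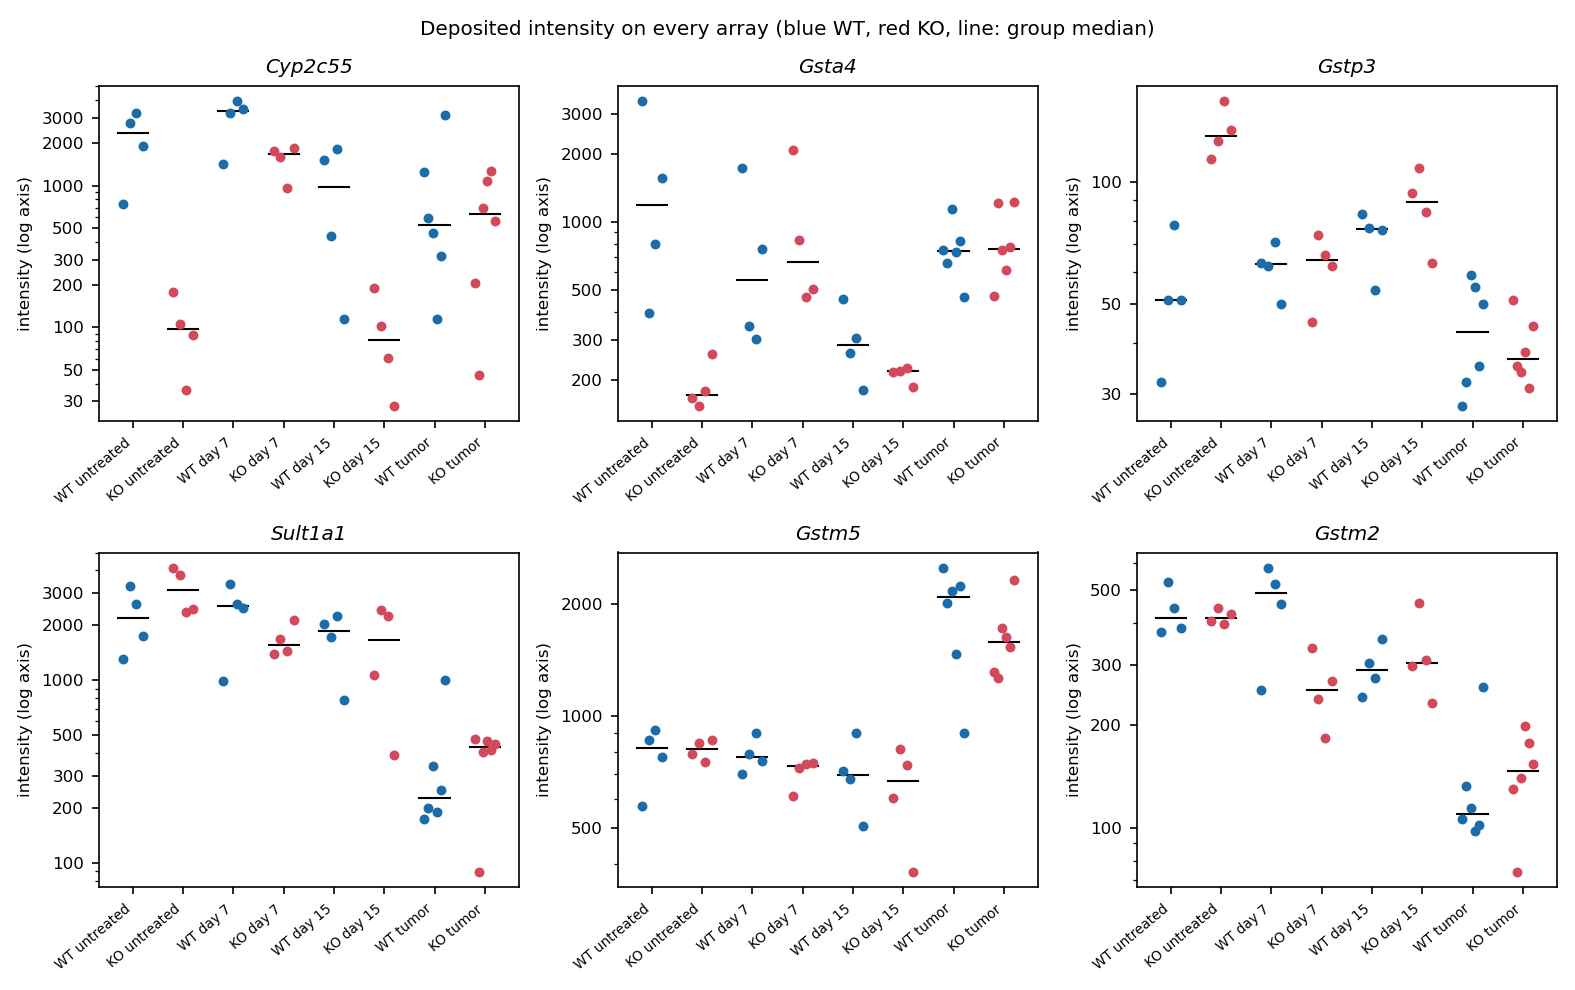
Each point is the deposited intensity of 1 array on a log axis, for 6 enzyme genes in the 8 groups (blue WT, red KO), and lines are group medians. Untreated KO points of Cyp2c55 and Gsta4 lie below and those of Gstp3 above all untreated WT points, and tumors lie low for Sult1a1 and Gstm2 and high for Gstm5 in both genotypes.

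At day 7 in WT, limma called 0 of 45 enzyme genes, with 0 at an unadjusted p under 0.05, beside 1.66% of all genes. Between the arrays labelled KO day 7 and untreated KO, 3 of 45 were called, the 3 genes above, with 15 at an unadjusted p under 0.05, beside 12.2% of all genes called. All arrays lay above untreated KO for 4 of 45 and below it for 12, which over genes with a mean of 16 or more held for 11.4% and 18.7%. The count was 16 with array weights, 14 when only the groups compared were fitted, 7 with a pseudocount of 16 and 6 without dim genes. The share of all genes called under those settings is not given here, so these counts were not read as a result about the enzyme genes. Between the arrays labelled KO day 7 and WT day 7, 0 of 45 were called, with 6 at an unadjusted p under 0.05, beside 0.298% of all genes. The count was 14 with array weights, a setting for which the share of all genes is not given here. The furthest from 0 was Gstm6 (-1.71 ± 0.45, adjusted p = 0.088).

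At day 15 in WT, 3 of 45 were called lower, beside 1.28% of all genes lower and 3.38% in either direction. Ugt2b35, from 75, 222, 248 and 164 to 44, 51, 73 and 31 without overlap, fell by 1.76 ± 0.49 (adjusted p = 0.037). Sult2b1, from 276, 170, 170 and 172 to 127, 67, 115 and 33 without overlap, fell by 1.36 ± 0.40 (adjusted p = 0.049). Without the arrays with high Krt5 the Sult2b1 difference was -1.18 ± 0.51 (adjusted p = 0.29), and its call held under 6 of 21 alternatives. Gsta4, with 456, 262, 307 and 181, fell by 1.99 ± 0.51 (adjusted p = 0.024), or by 0.95 ± 0.35 without the arrays with high Krt5 (adjusted p = 0.19). All 3 calls were lost without WT day 15 replicate 2 or 4 or without WT untreated replicate 4. In KO, 0 of 45 were called at day 15, with 19 at an unadjusted p under 0.05 and 0.813% of all genes called. Without KO day 15 replicate 2, 8 were called, and the share of all genes in that fit is not given here. The median log2 difference of the enzyme genes at day 15 was -0.30 in WT and -0.52 in KO, beside -0.01 and -0.02 over all genes. Replicate 4 of each genotype had the lowest colonocyte (7170 in WT, 5992 in KO) and highest neutrophil marker sums (13881 and 19494) at day 15. Against untreated colon, 0 of 10 colonocyte markers were called in either genotype. In WT, 4 of 8 macrophage, 3 of 5 B cell and 6 of 9 interferon-induced genes were higher, and in KO 3 of 6 neutrophil genes. The part of these markers was not tested. Sult1a1, Sult1c2, Cyp2d10, Cyp3a13 and Gstm2, which fell in tumors, were not called at day 7 or day 15 in either genotype. Sult1a1 read 997, 3390, 2615 and 2494 at day 7 and 2026, 1724, 2262 and 785 at day 15 in WT, both overlapping with untreated colon. On the arrays labelled KO day 7 it read 1397, 1688, 1455 and 2131, all below untreated KO. Sult1c2 had 520, 554, 476 and 497 at WT day 7, all above untreated WT, and 170, 145, 148 and 52 at WT day 15, all below it, without passing the test. On the arrays labelled KO day 7 it read 352, 386, 434 and 340, all above untreated KO, and Gstm2 read 337, 239, 183 and 269, all below untreated KO, neither past the threshold. Gstm5, higher in tumors, lay between 609 and 901 on the arrays labelled day 7 of either genotype and between 381 and 901 on those of day 15. Between KO and WT at day 15, 0 of 45 were called, with 4 at an unadjusted p under 0.05 and 0.222% of all genes called. The genotypes' changes to day 15 differed for 0 of 45, with 5 at an unadjusted p under 0.05 and 0.0819% of all genes called.

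Some enzyme genes were above the limit in some groups only. Of the 45, 41 had a group mean of 16 or more in every group, and Cyp2a5, Cyp2e1, Cyp4f18 and Cyp4f39 did not. Cyp2a5 and Cyp4f39 reached it in 2 groups only. Cyp2e1, the ethanol- and azoxymethane-oxidizing P450 of liver, had 10, 382, 14 and 56 in untreated WT and 69, 213, 12 and 50 in untreated KO. On the arrays labelled day 7 of either genotype it lay between 9 and 14. The arrays with 382 and 213 were also those with the highest Adipoq, an adipocyte hormone, at 561 and 363. Cyp2e1 also read 244 on WT day 15 replicate 4 and 225 on KO tumor replicate 5, where Adipoq was 90 and 137. Adipoq of 221 on WT tumor replicate 2 and 208 on WT day 15 replicate 2 went with Cyp2e1 of 73 and 36. On the day 7 arrays Adipoq lay between 11 and 18. Cyp2e1 passed the test in no comparison, and the part of adipose tissue in its values was not tested. Cyp2a5, a coumarin and nicotine hydroxylase, had 250 on WT untreated replicate 4 and 115 on the array labelled KO day 7 replicate 1 and between 8 and 23 elsewhere. Cyp4f39, a skin-barrier fatty acid hydroxylase, had 325 on WT untreated replicate 1, 48 on WT day 7 replicate 1 and between 6 and 19 elsewhere. All 4 of those high arrays had Krt5 above 100.

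**Figure D5:**
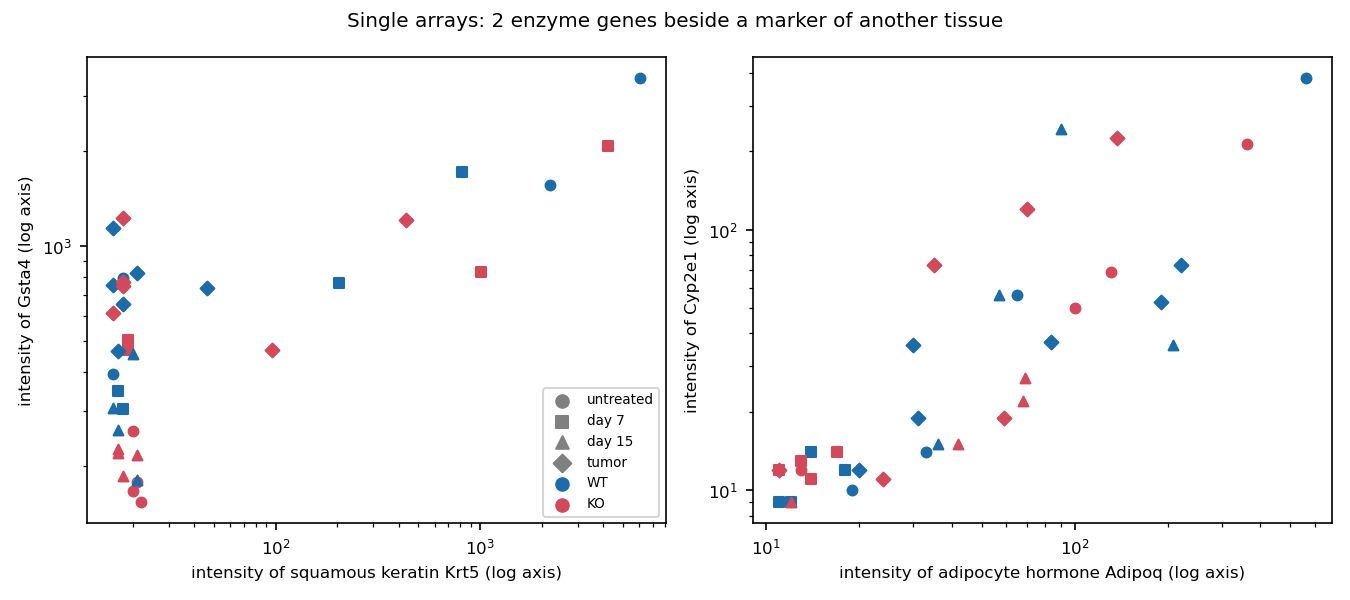
Left, intensity of Gsta4 against the squamous keratin Krt5 on each of the 36 arrays; right, Cyp2e1 against the adipocyte hormone Adipoq, all on log axes, with colour for genotype and symbol for stage. Gsta4 is high on the arrays with the highest Krt5 but also on tumor arrays with Krt5 near its lowest level, and Cyp2e1 is highest on the array with the highest Adipoq.

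The 44 enzyme genes with a mean below 16 gave few calls. Cyp2b10, the phenobarbital-inducible P450 and a target of the constitutive androstane receptor, rose in tumors of both genotypes, by 1.19 ± 0.36 in WT (adjusted p = 0.014) and 1.37 ± 0.36 in KO (adjusted p = 0.0053), from group means of 8.25 and 8 to 27.7 and 24.2. The WT tumor arrays read 10, 13, 81, 37, 16 and 9, overlapping with the untreated 10, 7, 9 and 7, whereas the KO tumors (20, 49, 25, 12, 16 and 23) lay above the untreated 7, 9, 9 and 7. Cyp2c23 fell in KO tumors by 0.72 ± 0.15 and on the arrays labelled KO day 7 by 0.56 ± 0.16, and Cyp2c37 rose in WT tumors by 0.21 ± 0.07, all near the lowest intensities. Counting all 89 symbols, 24 were lower and 4 higher in WT tumors. Of 14 further probe sets of 12 enzyme genes, 10 had a mean of 16 or more, and 8 of these had the sign of the chosen probe set in both genotypes; Cyp2j6 and Cyp4v3 did not.

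Other genes of the same metabolism were followed in lists, with 123 of 136 measured. Beside the counts of every list stand the shares over all genes. In WT tumors 22.8% were called (12.6% higher and 10.2% lower), and in KO tumors 20.8% (10.8% higher and 9.92% lower). Of 37 other phase I enzymes, 21 fell and 3 rose in WT tumors and 21 fell and 2 rose in KO tumors, with medians of -0.89 and -0.83. Maob, which oxidizes amines, fell by 2.82 ± 0.32 and 2.50 ± 0.32, the aldo-keto reductase Akr1c14 fell too (-3.59 ± 0.55 and -3.68 ± 0.55), and the aldehyde dehydrogenase Aldh2 fell by 1.41 ± 0.21 and 1.14 ± 0.21. Aldh1a3, which makes retinoic acid, rose by 2.65 ± 0.60 and 3.20 ± 0.60. Of 15 transporters, 5 fell in each genotype, and 1 rose in WT and 3 in KO. The drug efflux pump Abcb1a fell by 2.90 ± 0.50 and 2.17 ± 0.50 and the peptide carrier Slc15a1 by 3.72 ± 0.37 and 3.06 ± 0.37, while the efflux pump Abcc4 rose by 1.50 ± 0.26 and 1.64 ± 0.26.

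Cofactor and glutathione supply gave 3 higher and 5 lower of 16 in WT tumors and 0 higher and 8 lower in KO. Over all genes 22.8% were called in WT tumors and 20.8% in KO tumors. Slc26a2, a sulfate carrier, fell by 2.20 ± 0.33 and 2.27 ± 0.33, and so did Papss1, which makes the sulfate donor of the sulfotransferases (-0.996 ± 0.203 and -0.80 ± 0.20). Ugdh, which makes UDP-glucuronic acid, fell by 0.94 ± 0.22 and 0.98 ± 0.22. Gpx2, the gut glutathione peroxidase, rose in WT tumors by 1.04 ± 0.16 and fell at day 7, in WT by 0.68 ± 0.18 and on the arrays labelled KO day 7 by 1.58 ± 0.18. Of 6 P450 electron donors and heme genes, 1 rose in WT (Alas1, 0.47 ± 0.11) and none passed in KO. Of 19 other phase II enzymes, 3 fell in WT and 5 in KO and none rose.

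Among 21 regulators, 2 rose and 6 fell in WT tumors and 2 rose and 10 fell in KO tumors, beside 22.8% and 20.8% of all genes called. The aryl hydrocarbon receptor Ahr rose by 0.48 ± 0.17 in WT and 0.57 ± 0.17 in KO, and Arnt, its partner, fell by 0.45 ± 0.13 in each. Rxra, the partner of many nuclear receptors, fell by 0.89 ± 0.14 and 0.76 ± 0.14, the intestinal factor Hnf4g by 1.13 ± 0.21 and 1.06 ± 0.21, and Ppard by 0.98 ± 0.23 and 1.44 ± 0.23. Nr1i2, the pregnane X receptor, fell in KO tumors by 0.89 ± 0.29. Of 9 Nfe2l2 target genes outside the other lists, 2 rose and 1 fell in each genotype, with Prdx1, a peroxiredoxin, rising by 0.31 ± 0.06 and 0.28 ± 0.06. In none of these lists was a gene called between KO and WT tumors.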

How the data were processed

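Total RNA of minced whole colon was extracted with TRIzol, biotin-labelled and hybridised to 1-colour Affymetrix HT MG-430 PM arrays, per the labels' protocols. The deposited values are intensities on a linear scale, whole numbers between 4 and 14185 with array medians of 14 to 16; how the authors summarised and normalized them is not given in the sources used here. Of 45037 probe sets, 28898 had 1 gene symbol, 551 several and 15588 none in the platform annotation, and the set with the highest mean was used for each of 17097 genes. Intensities were transformed as log2(intensity + 1), quantile-normalized over all probe sets and fitted with limma 3.58.1 in R 4.3.3 as 8 group means over 36 arrays, with intensity-trended eBayes and Benjamini-Hochberg adjustment over all genes in each of 13 comparisons, at a threshold of 0.05. Printed intensities are the deposited ones, and folds and differences come from the fit. Array correlations were 0.913 to 0.995, and no 2 arrays held identical values. The number of arrays limits the precision.

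The enzyme genes, the other gene lists, the limit of 16 and the rule for naming were chosen with earlier results of these data known. Any enzyme gene above the limit could be named; values were given for up to 10 called genes with the largest change per comparison, levels for the 12 brightest and for Cyp2e1, Cyp2c55 and Gsta4, the 3 genes on either side of the limit, and up to 6 genes with the smallest p from each other list. Cluster neighbours and called genes below the limit were added after their values were seen. Groups came from the labels, which do not say that replicates are separate animals, so the p-values reflect only how these samples vary, which may be technical. The labels state no pairing by replicate number; deviations of same-numbered arrays correlated above 0.1 for every pair only for WT day 7 against untreated (0.164 to 0.398) and KO against WT at day 15 (0.174 to 0.801). Promoters and positions come from RefSeq tables (GRCm38.p6). The script was tested on simulated data. Alternatives covered pseudocount, normalization, dim genes, probe sets, variance model, array weights, groups fitted, blocks and arrays left out; the last of these, apart from leaving out single arrays, and the fit without normalization were chosen after seeing the data.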

Additional observations from a re-analysis of the deposited data

Results flagged for a closer look

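Among the 18 enzyme genes whose arrays were examined, 19 of 144 groups of arrays held a value far from the rest of its group. Of these, 7 came from Cyp2a5, Cyp4f39 and Cyp2e1. Cyp2a5 and Cyp4f39 passed the intensity limit through few arrays, and no chance rate was worked out for these intensities. The number of such groups was therefore not read against chance. WT tumor replicate 6 was apart in 6 of the 19 groups. Its intensities were 3168 for Cyp2c55 (other WT tumors 115 to 1242), 1000 for Sult1a1 (174 to 339), 105 for Sult1c2 (23 to 31), 163 for Cyp2d10 (28 to 56), 2388 for Ugt1a6a (583 to 1086) and 260 for Gstm2 (98 to 133). Its marker sums of colonocytes, smooth muscle and several other cell types, given with the tumor results, were the highest among WT tumors, and their part was not tested. KO tumor replicate 2, an array with high Krt5, had 89 for Sult1a1 (404 to 480) and 130 for Cyp2f2 (7 to 29). It had the lowest sums of colonocyte (2602) and smooth muscle (2045) markers among KO tumors. Its sums of goblet, fibroblast, adipocyte, macrophage, T cell, B cell, plasma cell and small intestine markers were the lowest there too. Its sum of squamous markers (4192) was the highest, and the part of all these markers was not tested.

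Among the other arrays with high Krt5, WT untreated replicate 4 had 1312 for Cyp2f2 (229 to 324) and 250 for Cyp2a5 (10 to 11). WT untreated replicate 1 had 276 for Sult2b1 (170 to 172) and 325 for Cyp4f39 (7 to 12). WT day 7 replicate 1 had 48 for Cyp4f39 (9 to 12), and the array labelled KO day 7 replicate 1 had 115 for Cyp2a5 (9 to 19) and 609 for Gstm5 (725 to 746). The others were WT untreated replicate 2 for Cyp2e1 (382 against 10 to 56), KO day 15 replicate 4 for Cyp4f18 (182 against 33 to 54), and differences of a few units near the lowest intensities for Cyp2a5 on KO day 15 replicate 3 (10 against 9) and Cyp4f39 on WT tumor replicate 1 (6 against 8 to 9).

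The changes from untreated colon differed between the genotypes by the test of that difference for Gsta4, higher in KO by 3.00 ± 0.72 at day 7 and 2.70 ± 0.66 in tumors on the log2 scale, and for Gstp3, with -1.47 ± 0.33 and -1.51 ± 0.30. All 4 rest on the same untreated arrays.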

How the results depend on the processing

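Of 67 differences of single enzyme genes called, 47 were called under every alternative that gave a value, and none changed sign. The block by the letter of the title code lost 14 of 67, and that by its number 6. Leaving out the 7 arrays with Krt5 above 100 lost 6 of 67, fitting only the groups compared 4, and array weights 2. These sets overlap, since some calls, such as that of Gsta4 at WT day 15, were lost under several settings. Leaving out each array in turn gave 25 to 28 calls in WT tumors and 25 to 29 in KO tumors, 0 to 3 at day 15 in WT, 0 to 8 in KO (8 without KO day 15 replicate 2), 3 to 4 for the arrays labelled KO day 7, 3 to 4 between the untreated genotypes, 0 to 2 between them at day 7 and 0 to 1 at day 15, and 1 to 2 for the genotypes' changes to day 7 and to tumors. The tumor counts stayed within 1.5 times under all alternatives run.

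Other counts moved further. Shares of all genes called under the alternatives are not given here, so the counts below were not read as results about the enzyme genes. Array weights gave 1 call at day 7 in WT, 16 for the arrays labelled KO day 7, 2 for KO day 15, 5 between untreated genotypes, 14 between them at day 7 and 7 for their changes to day 7. Fitting only the groups compared gave 14 calls for the arrays labelled KO day 7, 5 between untreated genotypes and 0 at day 15 in WT. For the arrays labelled KO day 7, a pseudocount of 16 gave 7 and leaving out dim genes 6. For KO day 15, centring on array medians, leaving out dim genes and no normalization gave 1 each. At day 15 in WT both title-code blocks, and leaving out replicate 4 of both genotypes, gave 0. Without the arrays with high Krt5 there was 1 call at day 15 in WT, 1 between genotypes at day 7, 1 for their changes to day 7 and 0 for those to tumors, for which the letter block gave 1. Without the 2 arrays labelled KO day 7 with Il17rc above 40 the changes to day 7 gave 1. The causes were not tested. With the replicate block, the counts were 26 in WT tumors, 28 in KO tumors, 2 at day 15 in WT and 4 for the arrays labelled KO day 7, and for the 2 comparisons whose numbers paired the arrays 0, so it changed no other count; it ended the calls of Cyp2f2 in KO tumors and Sult2b1 at day 15. Near the lowest intensities, differences are compressed and could not be resolved.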
